A study of Mus musculus with 14 samples.

Results

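The genes examined here encode ASH2L and the proteins it works with in the KMT2 complexes, which methylate lysine 4 of histone H3 (H3K4). They are the 4 core subunits Ash2l, Wdr5, Rbbp5 and Dpy30, together called WRAD, and the 6 methyltransferases Kmt2a, Kmt2b, Kmt2c, Kmt2d, Setd1a and Setd1b. They were chosen by name, and all 10 were found among the 21938 protein-coding genes of the GRCm38 annotation. The measurement is H3K27me3, trimethylation of lysine 27 of histone H3, which Polycomb repressive complex 2 (PRC2) sets at silent genes. Trithorax proteins such as ASH2L and Polycomb proteins are classically seen as opposing systems. The KMT2 enzymes are weak on their own and need the WRAD core for efficient methylation of H3K4, a mark of active promoters and enhancers. CpG-rich promoters of transcribed genes typically carry H3K4me3, while PRC2 is found at CpG-rich promoters that are silent.

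The cells were immortalised mouse embryo fibroblasts (iMEF) in which exon 4 of the endogenous Ash2l alleles had been deleted and which live on FKBP-HA2-ASH2L, a human ASH2L fusion expressed from a lentiviral construct. Both features come from the study's methods, which describe clones selected after Cre-ER had removed the exon and used mainly 1 of them, NG3. The labels give 12 H3K27me3 libraries in 6 groups of 2, namely control cells (No dTAG treatment) and cells treated for 30 min, 2 h, 4 h, 8 h or 16 h with dTAG, a PROTAC that sends the tagged protein to degradation, and 2 input libraries (control and 16 h). All groups carry the deletion and the construct. The processed data used here are 1 list of 153983 sites called in any of the samples, each with a chromosome, a start and an end. The study's supplement also names a list of sites that changed significantly at each time against control cells, which was not used here. The list of all sites holds no value per library and no depth. From it, groups could not be compared and no test between them was possible, and every value below describes this list as a whole. A position without a site is a position where none was called, not one shown to lack the mark. As a check of the cell type, 2 of 7 fibroblast genes (Col1a1 and Vim) had a site within 1 kb of a start. None of these sites was 1 kb wide or more. Of 8 markers of epithelium, blood, nerve and muscle, 6 had one, all of them at least 1 kb wide. Krt8 and Ptprc had none there. Over all protein-coding genes, 31.5% had a site there and 20.1% one of at least 1 kb. The fibroblast count is thus near the background. Such a list measures no expression, so this describes only where sites were called.

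Before the results on the other members, the Ash2l gene needs a separate account, because its sites followed its exons. Ash2l lies on the minus strand of chromosome 8 from 25815996 to 25847694, and 10 sites of 200 to 870 bp lay in it. All 10 overlapped a coding exon of the principal transcript, and 0 lay within an intron. For a comparison over all genes, the coding parts of all transcripts of a gene were joined. Among 1539 protein-coding genes with at least 10 sites in the body, every site then overlapped a coding part in 3 genes, or 0.195%. Ash2l was 1 of them, and the cut of 10 is its own number of sites. Among 3048 genes with at least 5 such sites, this held for 66, or 2.17%. Of the 16 exons of this transcript, 12 of the 13 from exon 4 to exon 16 had a site, the exception being exon 9, and exons 1 to 3 had none. Sites covered 1368 of the 1483 coding bases from exon 4 onward, or 92.2%, compared with 10.7% of the bases in introns. Of 5152 genes of 20 to 50 kb, 7.41% had at least as large a share of the whole coding part covered as Ash2l (73.2%), wherever their sites lay. The coding part was covered in full in 10 exons. The last exon is mostly untranslated, and there the site covered all 105 coding bases but only 95 of 1408 untranslated ones.

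The fit to the exons was close. Of the 10 sites, 8 touched 1 exon only, and the centre of the site was 3 to 65 bp from the centre of that exon, within 12 bp for 6 of them. These sites reached on average 211 bp beyond the exon, counting both sides together. The widest sites were those of 870 bp on exons 11 and 12 and of 401 bp on exon 14. The 3 sites within 1 kb of a start were the first of these and those on exons 6 (313 bp) and 7 (325 bp), the one on exon 6 being only 93 bp from the start of a transcript with a retained intron. Exon 4 carried a site as well, from 25835870 to 25836211, although the study's methods state that exon 4 was deleted in these cells. The numbering used here is that of the principal transcript and was not checked against the construct of the mouse line. Exon 4 has 89 bases, which leaves a remainder of 2 on division by 3. A coding sequence cloned as cDNA, such as that of the ASH2L fusion, contains exons without introns. Whether reads from the human construct gave rise to the sites on the exons was not tested, as no human sequence was used here.

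**Figure D1:**
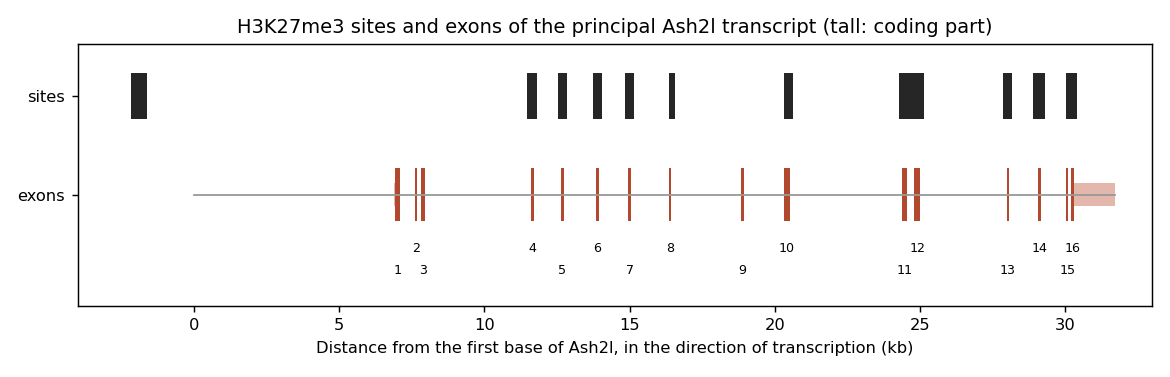
Sites (top) and exons (bottom) of Ash2l against the distance in kb from the first base of the gene. Each of the 10 sites in the gene stands over 1 or 2 of exons 4 to 16, exon 9 and exons 1 to 3 have none, and the only other site shown is 1.61 kb upstream.

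The sequences of exon 4, which the methods describe as deleted, of exon 6, which also carried a site, and of exon 9, which did not, are shown here as read from GRCm38 on the minus strand. Capitals mark the exon, and lower case the 40 bases of intron on either side. The stretches are chr8:25835960-25836128, chr8:25833711-25833886 and chr8:25828726-25828899.
Ash2l exon 4: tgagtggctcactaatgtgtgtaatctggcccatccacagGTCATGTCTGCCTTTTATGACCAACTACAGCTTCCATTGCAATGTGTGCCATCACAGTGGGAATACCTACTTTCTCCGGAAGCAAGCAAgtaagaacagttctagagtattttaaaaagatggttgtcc
Ash2l exon 6: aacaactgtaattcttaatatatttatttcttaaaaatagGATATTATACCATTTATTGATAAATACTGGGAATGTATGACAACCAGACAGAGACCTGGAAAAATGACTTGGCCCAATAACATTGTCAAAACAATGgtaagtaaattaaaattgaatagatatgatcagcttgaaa
Ash2l exon 9: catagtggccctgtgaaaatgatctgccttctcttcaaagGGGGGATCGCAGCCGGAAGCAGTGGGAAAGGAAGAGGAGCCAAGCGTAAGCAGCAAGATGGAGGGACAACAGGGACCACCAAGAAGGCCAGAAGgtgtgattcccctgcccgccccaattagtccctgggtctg
The 3 exons are of similar length, with 89, 96 and 94 bases. The study sequenced single reads of 75 cycles, and 0 of the 75-base words inside the 10 sites occurred elsewhere in the mouse assembly. The human ASH2L sequence of the construct is not part of that assembly. This count therefore cannot show where reads from the construct would be placed.

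In the rest of the Ash2l locus, no site lay in the 222.9 kb downstream of the gene, while the 100 kb upstream were covered to 28.9%. The site nearest to the first base was upstream, at 25849306 to 25849874, with a width of 569 bp. The next gene in that direction, Kcnu1, which codes for a potassium channel, lay 1.93 kb from Ash2l and had a site of 5640 bp at a start. Without the 10 sites on its exons, Ash2l would lie in a stretch of 256.2 kb free of sites. The principal start of the gene, at 25840787, was 4576 bp from the nearest site, which is the site on exon 4, and would be 8519 bp from one without the exon sites.

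Sites at start sites were counted across the 10 genes. Within 1 kb of any annotated start, 2 of 10 members had a site, namely Ash2l with 3 sites and Kmt2c with 1, compared with 31.5% of all protein-coding genes and 25.5% of those with a CpG-rich start, so that the count is near the background. CpG-rich means here that the window of 500 bp to each side had at least 50% G and C and at least 0.6 times the CpG expected from its base composition, and for the gene classes this was judged at the first base. With Ash2l left out, 1 of 9 members had a site. None of the 4 sites in these windows was as wide as 1 kb. By gene, 0 of 10 members had a site of at least 1 kb there, compared with 20.1% of all genes. At the first base of the gene, 0 of 10 members had a site within 1 kb, with 25.3% for all genes and 20.1% for those with a CpG-rich start. When only starts of coding transcripts were taken, 0 of 10 members had one, compared with 28.9% of all genes.

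The members have 61 annotated starts between them, 40 of which belong to coding transcripts. Of the 61, 3 were within 1 kb of a site, 2 in Ash2l and 1 in Kmt2c, compared with 19.9% of the 93513 starts of all protein-coding genes. These starts are not independent, as several of a gene often lie close together. All 3 belong to transcripts without a coding sequence that begin inside the gene. Each of the 10 genes has at least 1 CpG-rich start, and 0 of 10 had a site within 1 kb of one, compared with 22.2% of the 11236 genes with such a start. By gene, the smallest distance from a CpG-rich start to a site was 3.87 kb for Ash2l, 4.35 kb for Kmt2b, 5.68 kb for Kmt2a, 14.6 kb for Rbbp5, 15.4 kb for Kmt2d and 17.3 kb for Wdr5. It was 26.0 kb for Setd1b, 33.2 kb for Setd1a, 35.5 kb for Kmt2c and 70.2 kb for Dpy30. The median of these distances was 16.4 kb, compared with 7.65 kb over all genes with a CpG-rich start. They are single positions in 1 list without replicates, so the order carries no error. For Ash2l, the smallest of them, the nearest site was that on exon 4.

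**Figure D2:**
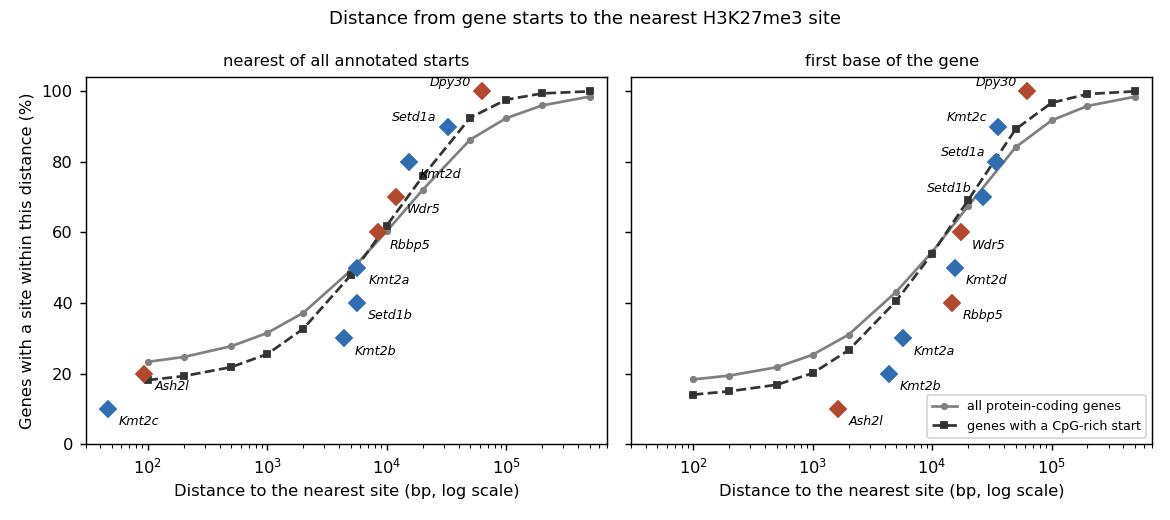
Percentage of genes with an H3K27me3 site within a given distance in bp (log scale) of any annotated start (left) or of the first base of the gene (right). Lines show all protein-coding genes and those with a CpG-rich start, and diamonds the 10 members (red for core subunits, blue for methyltransferases), from 46 bp for Kmt2c to 62700 bp for Dpy30 on the left and from 1612 bp for Ash2l on the right.

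From any annotated start, the median distance to the nearest site was 7.10 kb over the 10 members, compared with 5.29 kb over all protein-coding genes and 5.55 kb over those with a CpG-rich start. From the first base, the medians were 16.4 kb, 7.76 kb and 8.27 kb, respectively. Dpy30 was the farthest, with 62.7 kb by either measure, a distance larger than that of 88.7% of all genes for any start. Kmt2c differed most between the measures, from 46 bp to 35.5 kb, since the only start near a site was an internal one. No other protein-coding gene had a start within 1 kb of a start of a member, so none of these windows held the start of such a neighbour.

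The promoters differed in composition. The RefSeq promoter table (GRCm38.p6, 250 bases before to 50 after the start) matched 7 of the 10 genes. Ash2l, Kmt2b and Setd1b were not matched. These 300 bases held 56 CpG in Kmt2c, 36 in Kmt2a, 35 in Setd1a, 27 in Kmt2d, 22 in Wdr5, 16 in Rbbp5 and 1 in Dpy30, compared with a median of 7 over all promoters. The low value of Dpy30 belongs to the RefSeq start at 74323944, whereas the 5 other starts of this gene, near 74316408, were CpG-rich. Bases 250 to 11 before the start are shown for the member with the second most CpG, for the one with the second fewest and for the one with the fewest, with each CpG in capitals. The stretches are chr9:44881300-44881539 on the minus strand, chr1:132477117-132477356 on the plus strand and chr17:74323955-74324194 on the minus strand.
Kmt2a: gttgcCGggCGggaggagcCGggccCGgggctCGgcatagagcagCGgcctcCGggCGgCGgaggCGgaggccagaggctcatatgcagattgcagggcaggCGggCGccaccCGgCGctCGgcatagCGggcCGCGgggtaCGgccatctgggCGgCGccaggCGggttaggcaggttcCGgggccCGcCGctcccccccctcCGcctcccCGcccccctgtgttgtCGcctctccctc
Rbbp5: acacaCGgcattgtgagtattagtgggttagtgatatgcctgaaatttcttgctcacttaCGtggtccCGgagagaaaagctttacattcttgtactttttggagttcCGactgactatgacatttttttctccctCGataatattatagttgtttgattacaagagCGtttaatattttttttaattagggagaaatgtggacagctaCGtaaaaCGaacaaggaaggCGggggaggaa
Dpy30: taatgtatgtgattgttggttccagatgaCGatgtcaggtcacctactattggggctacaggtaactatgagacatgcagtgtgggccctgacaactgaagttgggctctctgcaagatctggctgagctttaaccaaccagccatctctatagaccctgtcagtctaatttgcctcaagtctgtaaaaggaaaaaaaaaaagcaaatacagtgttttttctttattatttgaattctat
In these bases, Kmt2a has 28 CpG, Rbbp5 9 and Dpy30 1. The motif GGGCGG, a GC box bound by SP1, was found on either strand in 4 of the 7 promoters (Kmt2a, Kmt2c, Kmt2d and Wdr5) and in 35.9% of all 27025. The motif CCGGAA, the core bound by ETS factors, was in 1 (Kmt2a) and in 15.2% of all, and TATAAA was in 0 of the 7 and in 14.2% of all. A match is only a match of letters. The 3 stretches lie within 1 kb of annotated starts that had no site.

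Core subunits other than Ash2l had no site in the gene. Wdr5, Rbbp5 and Dpy30 are 21.4, 28.3 and 24.5 kb long, and 0% of their bases were in a site. Wdr5, a WD40 protein that holds the methyltransferases and RBBP5 together, lies on chromosome 2 from 27515157 to 27536535. Its nearest sites were 17.3 kb upstream (1138 bp wide) and 3.16 kb downstream (385 bp wide). Of the 100 kb downstream of Wdr5, 30.0% was covered, against 4.32% upstream. None of the 3 protein-coding genes within 100 kb had a site at a start, and the nearest gene with one of at least 1 kb was Dbh, the gene of dopamine beta-hydroxylase, 332 kb away.

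Rbbp5 was a gene free of sites beside one of the most covered flanks. It codes for the subunit that together with ASH2L activates the methyltransferases, and lies on chromosome 1 from 132477365 to 132505659. Sites covered 89.75% of the 100 kb downstream and 1.52% of the 100 kb upstream. The first downstream site, 5656 bp wide, began 6.58 kb after the end of Rbbp5, and the widest was 28.6 kb. With both sides together, 45.6% of the flanks was in a site, more than for 96.5% of all genes. The nearest gene with a wide site at a start was Cntn2, which codes for a neuronal adhesion protein, 3.77 kb from Rbbp5, with a site of 21967 bp. Upstream, the nearest site was 14.6 kb away and 368 bp wide. Nfasc and Dstyk, also within 100 kb and named after their values were seen, had a site at a start as well. Of 160 genes of 20 to 50 kb with flanks covered at least as much, 34 or 21.2% had no site in the body.

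Dpy30 was the reverse case. This small protein binds the C-terminus of ASH2L, and its gene lies on chromosome 17 from 74299474 to 74323944. In the 200 kb on both sides only 3 sites were listed, the widest of 374 bp, and they covered 0.460% of these flanks, a share above that of only 17.8% of all genes. The nearest sites were 62.7 kb upstream and 54.3 kb downstream of the gene. The stretch free of sites around its first base was 141.5 kb long, compared with a median of 55.7 kb over all genes. The nearest gene with a wide site at a start, the inflammasome gene Nlrc4, was 101.5 kb away. Few stretches of the members had exact copies, as, with 1 kb added on either side, 3.09% of the 75-base words of Dpy30 and between 0.338% (Kmt2a) and 6.10% (Ash2l) of those of the other members occurred elsewhere in the assembly.

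**Figure D3:**
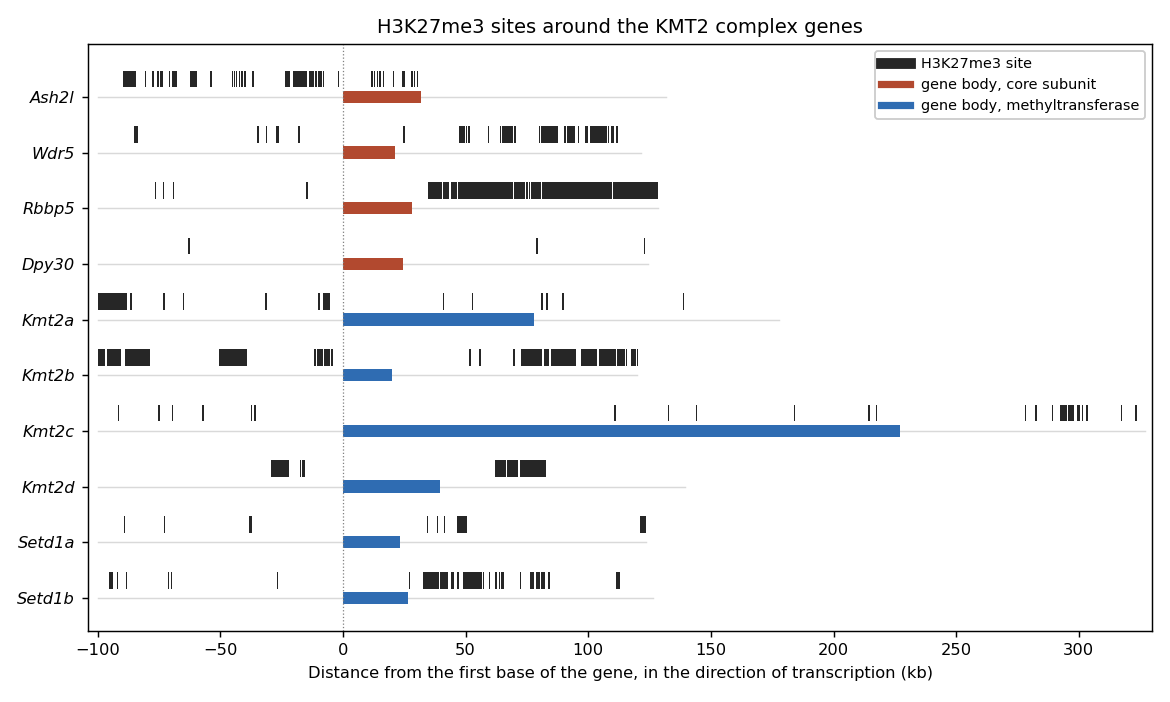
H3K27me3 sites (black) around the 10 genes, from 100 kb upstream to 100 kb downstream, against the distance in kb from the first base in the direction of transcription (coloured bars, gene bodies; sites narrower than 0.6 kb are drawn at that width). Rbbp5 is followed by an almost unbroken run of sites, Dpy30 has 3 sites in its flanks, and the 10 sites inside Ash2l stand out among bodies that are mostly empty.

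Of the methyltransferases, 2 of 6 had a site in the body. Over all 10 members, 3 had one (Ash2l, Kmt2a and Kmt2c), compared with 46.7% of all protein-coding genes and 43.9% of those with a CpG-rich start. As longer genes offer more room, the count is also given by length. Of the 7 members of 20 to 50 kb, 1 had a site in the body, with 48.8% for all genes of that length. Kmt2a, in the class of 50 to 100 kb, and Kmt2c, in that of 100 kb or more, both had sites, with 62.4% and 81.6% for all genes of these classes, and Kmt2b, under 20 kb long, had none, with 35% for its class. The median covered share of the body was 0% over the members and 0% over all protein-coding genes.

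Kmt2a, also called MLL1 and known for its rearrangements in leukaemia, lies on chromosome 9 from 44803355 to 44881296 and had 2 sites that covered 0.943% of it. The site at 44828399 to 44828811 was 413 bp wide and reached 28 bases into exon 20, and that at 44840327 to 44840648 was 322 bp wide and lay in intron 10. In the latter, 19.8% of the 75-base words occurred elsewhere in the assembly. The nearest site upstream, 200 bp wide, was 5.68 kb from the first base, and the nearest downstream, 294 bp wide, 2903 bp from the last. The 100 kb upstream of Kmt2a were covered to 16.1% and included a site of 14.7 kb, and Cd3g, which codes for a subunit of the T cell receptor complex, was the nearest gene with a wide site at a start.

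Kmt2c, also called MLL3 and with 227 kb the longest of the members, lies on chromosome 5 from 25271798 to 25498783. Its 6 sites were 200 to 622 bp wide and covered 0.874% of the gene but 8.46% of its coding bases. As in Ash2l, most lay on exons, since 5 of the 6 overlapped a coding exon of the principal transcript. The widest 2, with 622 and 419 bp, were on exons 19 and 20 and on exon 52, respectively, and covered exons 19 and 20 in full. Smaller sites covered exon 8 and exon 15 in full and 10.5% of exon 36. This transcript of Kmt2c has 59 exons, of which 6 had a site. The centres of all 6 sites lay at least 110.8 kb from the first base, and the 100 kb on either side of the gene were covered to 2.89% upstream and 9.67% downstream. The nearest sites outside the gene were 35.5 kb upstream (700 bp) and 51.0 kb downstream (477 bp), and the nearest gene with a wide site at a start, Prkag2, was 171.2 kb away.

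The site of Kmt2c that was not on an exon lay in intron 54, 46 bp from the internal start of a transcript with a retained intron, and was the only site of a methyltransferase in a start window. It had the smallest width in the list, 200 bp, as had 2 other sites of the members. It is shown as the sole case among these enzymes, from chr5:25281446-25281645 on the minus strand, with its only CpG in capitals.
Kmt2c site: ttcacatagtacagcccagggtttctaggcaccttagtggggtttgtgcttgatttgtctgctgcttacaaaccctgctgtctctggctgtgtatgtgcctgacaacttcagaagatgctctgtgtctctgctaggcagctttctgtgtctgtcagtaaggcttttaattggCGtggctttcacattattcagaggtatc
The GC content of this site was 47%, compared with 77.2% in the 500 bp to each side of the first base of Kmt2c.

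For comparison, 28.3% of all 63708 sites in protein-coding gene bodies overlapped a coding exon, and 20.3% of the 33488 that were under 500 bp. Among the members this was the case for all 10 sites of Ash2l and for 6 of the 8 sites of Kmt2a and Kmt2c. The 18 sites of the members had a median width of 324 bp, compared with 455 bp for the whole list, and 16 of them were under 500 bp. None was 1 kb or wider, whereas 23.3% of all sites were.

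Kmt2b, Kmt2d, Setd1a and Setd1b had no site from the first to the last base. Kmt2b, required in oocytes and early development, lies on chromosome 7 from 30568858 to 30588726 in a crowded region with 17 other protein-coding genes within 100 kb, of which 6 had a site at a start. Its flanks were covered to 35.85% upstream and 40.3% downstream, together more than those of 93.8% of all genes. The nearest sites were 4.35 kb upstream (291 bp) and 31.7 kb downstream (200 bp). The neighbour Zbtb32, which codes for a zinc finger repressor of lymphocytes, lay 0.954 kb from Kmt2b and had a site of 2398 bp at a start. Of 847 genes under 20 kb with flanks covered at least as much, 254 or 30% had no site in the body.

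Kmt2d, which codes for an enzyme that acts at enhancers, lies on chromosome 15 from 98831669 to 98871204. Its flanks had 6 sites, up to 10.6 kb wide, that covered 9.07% upstream and 19.7% downstream. The nearest were 15.4 kb upstream (1212 bp) and 22.3 kb downstream (4622 bp). The nearest gene with a wide site at a start was Rhebl1, a small GTPase gene, 6.57 kb away. Further neighbours with a site at a start, named after their values were seen, were the signalling genes Wnt1 and Dhh and the gene Ddn.

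The SETD1 enzymes set much of the H3K4me3 at promoters. Setd1a, on chromosome 7 from 127776670 to 127800122, had its nearest sites 37.1 kb upstream and 10.8 kb downstream, and its flanks were covered to 1.77% and 7.81%. Setd1b, on chromosome 5 from 123142193 to 123168629, had a site only 0.370 kb after its last base, 359 bp wide, and none for 26.5 kb upstream. Of the 100 kb downstream of Setd1b, 28.1% was covered, against 4.03% upstream. The nearest neighbour of Setd1b with a wide site was Hpd, which codes for an enzyme of tyrosine breakdown, 3.18 kb away. Among 1328 genes of 20 to 50 kb with flanks covered at least as much as those of Setd1b, 37.4% had no site in the body.

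**Figure D4:**
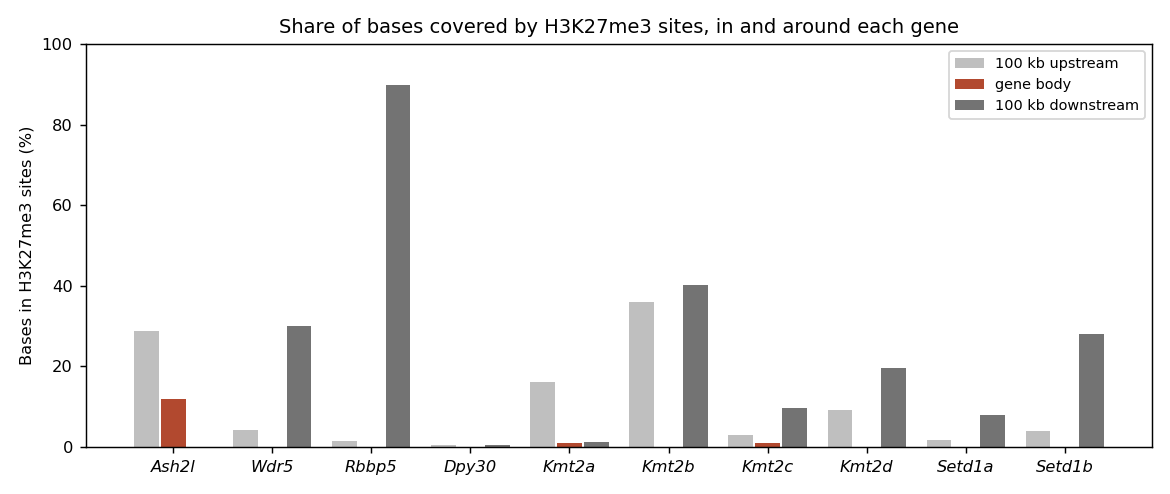
Percentage of bases in H3K27me3 sites in the 100 kb upstream, in the gene body and in the 100 kb downstream of each of the 10 genes. Bodies are at 0% for 7 genes, under 1% for Kmt2a and Kmt2c and 11.8% for Ash2l, while a flank reaches 89.75% downstream of Rbbp5 and 40.3% downstream of Kmt2b.

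In the median, the flanks were covered more than the body over all protein-coding genes as well as over the members. The windows differ in size, with 200 kb of flanks and a median body of 17.4 kb over all genes and 27.4 kb over the members. As only 46.7% of all genes had a site in the body, the median of the body is 0%. These medians therefore cannot show that sites avoid gene bodies. The median covered share of the flanks was 14.4% over the 10 members, compared with 5.36% over all protein-coding genes and 7.19% over those with a CpG-rich start, and 8 of 10 members were above the first and 7 of 10 above the second of these medians. The median of the flanks was 15.8% for the core subunits and 11.5% for the methyltransferases. Setd1a (4.79%) and Dpy30 (0.460%) were the members below the median of all genes.

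Other genes of the pathway were counted in the same way, beside 31.5% of all genes with a site within 1 kb of a start, 46.7% with one in the body and 25.3% with one at the first base. Of 10 subunits that belong to some of the complexes only (Men1, Psip1, Cxxc1, Wdr82, Hcfc1, Hcfc2, Kdm6a, Ncoa6, Paxip1 and Pagr1a), 1 had a site within 1 kb of a start and 5 had one in the body. The one was Hcfc1, on the X chromosome, with 3 sites of at most 479 bp at starts and 8 in the body, all 8 on coding exons. Of the 6 H3K4 demethylases (Kdm1a, Kdm1b, Kdm5a, Kdm5b, Kdm5c and Kdm5d), which remove the methyl groups, 1 had a site at a start, Kdm5a with 299 bp, and 3 had one in the body. Of PRC2 genes and the H3K27 demethylase Kdm6b, 3 of 7 had a site at a start, namely the methyltransferase genes Ezh1 (200 bp) and Ezh2 (263 bp) and the histone-binding subunit gene Rbbp4 (356 bp). In none of these 3 lists was a site at a start 1 kb wide or more, compared with 20.1% of all genes. At the first base, 0 of the 10 complex-specific subunits, 0 of the 6 demethylases and 2 of the 7 PRC2-related genes had a site.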

How the data were processed

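H3K27me3 ChIP-seq was performed by the authors on iMEF cells, and the deposited values used here are the positions (chromosome, start and end, in bp) of the called sites. The authors used Trim Galore for trimming and BWA for alignment to mm10 (GRCm38.p6). They then applied samtools filters after ENCODE, merged replicates with Picard, scaled libraries to the lowest coverage and called broad peaks with MACS (MACS2 in the submitters' processing notes). Versions, the peak threshold, the rule for joining peaks and the use of the input are not given in the sources used here. A library brought to lower coverage can give fewer or narrower sites.

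The smallest difference of end and start was 200, so positions were taken as 0-based with an open end, and 1 was added to each start for printing. Genes, starts and exons were taken from GENCODE M21 on GRCm38, an earlier release than that of the study. The principal transcript was the APPRIS principal transcript with the longest coding part. A site counted as at a start when it overlapped the 1 kb on either side. Flanks were the 100 kb on either side of the gene. Words of 75 bases were searched on both strands of GRCm38.p6, patches included. Values were computed with Python 3.11.15, numpy 2.4.6, pandas 2.3.3 and numba 0.67.0, and the interval functions were tested on simulated data. No tests were planned or run, since the list has no values per library. The genes named by rule were all members, every gene of the pathway lists with a site at a start, and, for each member, the nearest other gene with a site of at least 1 kb at a start, which for Setd1a is not reported here. Each member's sites were given, or beyond 5 sites the widest 2 and the 1 nearest to a start, with the nearest site on each side. The members and lists were chosen with earlier results of these data known. Alternatives were narrow sites left out, neighbouring sites joined, other windows, starts and overlaps, and positions counted from 1. Leaving out Ash2l and leaving out sites on coding exons were added after seeing the data.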

Additional observations from a re-analysis of the deposited data

How the results depend on the processing

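No paired analysis was possible because the deposited positions are not divided by library, so that leaving out a replicate was not possible either. A change of over 1.5 times is given as moved. The number of members with a site at a start, 2 in the main setting, was 1 without sites under 500 bp and 0 without those under 1 kb. It was 0 with starts of coding transcripts only, 0 at the first base of the gene, 1 without Ash2l and 1 without the sites on coding exons of members. It stayed at 2 with windows of 500 bp, 2 kb and 3 kb, with sites joined, and with the centre of the site inside. The number with a site in the body, 3 in the main setting, was 0 without sites under 1 kb. The median distance from a start to the nearest site, 7095.5 bp in the main setting, was 13533.5 bp without sites under 500 bp, 13533.5 bp without those under 1 kb, and 16353 bp from the first base. The median covered share of the body was 0% in every setting that recomputed it. Of 240 values of single members under an alternative, 40 moved, 12 of them in each setting without narrow sites and 0 with 1-based positions. Without the sites on coding exons, the covered share of Ash2l was 0%. The study's methods state a minimum number of raw reads planned per ChIP sample, but the usable depth behind the list is not known here, which limits what the absence of a site can show.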

Other observations

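Beside Ash2l, the other genes with at least 10 sites in the body that all overlapped a coding exon were Apob, the apolipoprotein B gene, and Cdc27, which codes for a subunit of the anaphase-promoting complex. Both were named after their values were seen. Apob had 12 sites, which covered 35.8% of its coding bases and 8.12% of its introns, and Cdc27 had 10 sites, with 56.1% and 5.11%. With the exons of all transcripts of a gene joined, the values for Ash2l were 73.2% and 6.41%.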
